A study of Mus musculus with 19 samples.

Results

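The serum amyloid A genes, Lcn2 and other classical acute phase genes were followed across 19 mouse livers profiled on Illumina BeadChips, single-colour arrays on which bead-bound probes capture labelled RNA. The set holds 10 genes (Saa1, Saa2, Saa3, Saa4, Lcn2, Orm1, Orm2, Hp, Crp and Serpina3n), picked by gene symbol in the platform annotation out of 10269 named genes in the authors' log2 table. They are read by 13 probes, since Saa1 has 2 probes and Hp has 3. All 13 probes passed the filter used here, a detection p-value below 0.05 on 5 or more arrays, which left 8529 named genes. Of the 13 probes, 10 were detected on every array. The dimmer ones, Saa1 probe 2, Saa2 and Lcn2, were detected on 7, 4 and 5 of the 8 WT arrays. The KO SAMe group held 5 livers of MAT1A KO mice given S-adenosylmethionine (SAMe). The KO placebo group held 6 livers of MAT1A KO mice given placebo, and the WT placebo group held 8 livers of wild-type mice given placebo. All mice were 10 months old, and the treatment ran for 8 weeks. Mat1a encodes the liver form of methionine adenosyltransferase, the enzyme that makes SAMe, which donates the methyl group in most methylation reactions of the cell. The sources used here do not give how the allele was made, the dose and route of SAMe or the sex of the mice. SAMe-treated WT mice were not analysed here, so SAMe was compared within the KO genotype only.

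The acute phase response is the rapid change in the plasma proteins that hepatocytes secrete when cytokines such as interleukin-6 (IL-6) and interleukin-1 (IL-1) reach the liver. Acting through STAT3, NF-kB and C/EBP transcription factors, these cytokines raise the transcription of the positive acute phase genes, while albumin and other negative acute phase genes fall. In mice, serum amyloid A is among the strongest reactants, and C-reactive protein, the usual clinical marker in people, responds little.

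Values are log2 intensities after background correction and quantile normalization, and a change is a difference of group means in log2 units with its standard error (SE). A probe is called where limma's moderated test, run over 14295 probes and all 19 arrays, gave a Benjamini-Hochberg adjusted p under 0.05. A probe's intensity depends on its own sequence, so levels are compared between livers and not between probes. Mat1a, read by 1 probe, lay at 9.50 to 9.77 in KO SAMe, 8.98 to 9.82 in KO placebo and 11.93 to 12.33 in WT placebo livers, as the genotype labels have it. Whether that probe lies in the altered stretch of the gene is not given. All 10 of the hepatocyte markers listed were detected on all 19 arrays, with a summed intensity of 39563 to 41290 in KO SAMe, 38038 to 45052 in KO placebo and 35851 to 43306 in WT placebo livers. Between 25.5% and 31.8% of probes were detected per array. By raw median signal the arrays formed a high-background set (93.6 to 100, KO placebo replicates 1 to 4 and WT placebo replicate 1) and a low-background set (75.1 to 85.8, the other 14 arrays), a split of which the labels say nothing. Each animal ID ends in a letter of unexplained meaning. KO placebo mice carried J or G and all WT placebo mice K, so in that pair letter and genotype cannot be told apart. KO SAMe mice carried I, K or G, and only replicate 3 (G) shared a letter with KO placebo mice. Letter and SAMe treatment can thus hardly be told apart within the KO genotype. In whole liver, fewer cells of a type and less RNA per cell cannot be told apart either.

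Saa1 and Saa2 encode the acute serum amyloid A proteins, which ride on high-density lipoprotein. In the gene order of the RefSeq table the family lies together on chromosome 7 as Saa3, Saa4, Saa1 and Saa2, and that table gives the symbols Saa1 and Saa2 as synonyms of each other. RefSeq promoter sequences of build GRCm38.p6 matched 8 of the 10 genes, all but Hp and Orm1. The 250 bases before the start of Saa1 and of Saa2 are printed to show how alike these genes are, and those of Lcn2 and Orm2 because their transcripts varied with Saa1 from liver to liver. Capitals mark a C/EBP type motif (TTGCNNAA on either strand) and, in Orm2, a TATA box (TATAAA on the gene's strand).
Saa1, chr7:46742981-46743230, minus strand: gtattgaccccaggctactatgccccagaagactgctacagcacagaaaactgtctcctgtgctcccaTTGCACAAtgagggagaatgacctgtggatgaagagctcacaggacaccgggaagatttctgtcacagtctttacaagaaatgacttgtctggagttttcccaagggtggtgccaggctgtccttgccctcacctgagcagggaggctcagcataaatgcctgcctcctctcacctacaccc
Saa2, chr7:46751583-46751832, plus strand: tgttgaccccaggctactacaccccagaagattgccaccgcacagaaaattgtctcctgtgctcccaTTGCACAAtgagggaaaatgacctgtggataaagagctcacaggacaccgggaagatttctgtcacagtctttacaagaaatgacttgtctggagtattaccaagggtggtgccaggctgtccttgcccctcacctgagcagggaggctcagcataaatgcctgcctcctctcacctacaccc
Lcn2, chr2:32387740-32387989, minus strand: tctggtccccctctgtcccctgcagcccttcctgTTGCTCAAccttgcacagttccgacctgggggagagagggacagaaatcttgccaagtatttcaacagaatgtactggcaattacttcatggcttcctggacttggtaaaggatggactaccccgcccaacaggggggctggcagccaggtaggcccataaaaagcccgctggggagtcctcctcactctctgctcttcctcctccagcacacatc
Orm2, chr4:63362199-63362448, plus strand: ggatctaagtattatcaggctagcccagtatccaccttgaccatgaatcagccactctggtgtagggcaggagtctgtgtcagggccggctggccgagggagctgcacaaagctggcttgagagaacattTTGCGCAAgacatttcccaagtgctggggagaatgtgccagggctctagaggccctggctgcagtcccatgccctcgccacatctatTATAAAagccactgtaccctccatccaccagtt

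Over these windows Saa1 and Saa2 were identical at 95.6% of aligned bases, against 56.6% to 71.1% for every other pair of the 8 promoters. The C/EBP type motif lay at -182 to -175 in Saa1 and at -183 to -176 in Saa2, counted from the annotated start. It lay at -216 to -209 in Lcn2 and at -120 to -113 in Orm2, where the palindrome reads alike on both strands. In windows of 300 bases around the start, 6 of the 8 promoters held it (those of Saa1, Saa2, Saa3, Saa4, Lcn2 and Orm2), compared with 10.8% of 32851 promoters. An NF-kB type motif (GGGA, any 3 bases, then TCC, either strand) was found in 0 of the 8 and in 4.59% of all promoters, and a STAT type motif (TTCNNNGAA, either strand) in 0 of the 8 and in 8.3%. The TATA box was found in Orm2 and Crp, 2 of the 8, and in 8.32% of all. No motif here overlapped another, and a match or its absence in these letters says nothing of what binds there.

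KO placebo livers had higher levels of most of these transcripts than WT placebo livers. Lcn2 and Saa1 changed most, Orm2, Saa1 probe 2, Serpina3n, Saa2 and Saa4 rose by between 1.07 and 1.78, and Hp and Crp by less. In all, 10 of 13 probes, from 8 of 10 genes, were called higher and 0 lower, with Saa3, Orm1 and Hp probe 1 not called. Over all probes 19.5% were called higher and 19.4% lower in this comparison, 38.9% together. The median change of the 13 probes was 1.07 log2 units, beside 0.01 over all probes. For 6 of the 13, every KO placebo array lay above every WT placebo array, whereas 15.7% of all probes had groups that did not overlap in either direction. Blocking on background set left 6 called higher, with 2493 of all 14295 probes higher and 2407 lower. The low-background arrays alone, which hold 2 KO placebo livers, gave 5, with 1195 of all probes higher and 1147 lower. A term for the ID letter left 0, but it left 63 of all 14295 probes called in either direction, so that this count says nothing particular of these genes. KO placebo and WT placebo mice share no letter, so this fit joins them only through the KO SAMe livers of letters G and K. Median scaling over detected probes, which puts the median of the filtered probes at 1 level on every array, gave 7 higher and Orm1 lower.

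In KO SAMe livers 5 probes were called lower than in KO placebo livers and 0 higher. These were Saa4, Lcn2, Hp probe 2, Crp and Serpina3n, beside 7.67% of all probes called lower and 9.5% called higher. Of the 13 changes 12 were negative, with a median of -0.66 beside -0.01 over all probes. For Saa4, Lcn2 and Crp the groups of arrays did not overlap, as for 8.51% of all probes, or 7.6% with the call required as well. Blocking on background set left 2 of the 5, Crp and Serpina3n, and 586 lower and 574 higher of all probes. Within the low-background arrays, where 2 KO placebo livers remain, 0 of the 13 and 6 of all 14295 probes were called in either direction.

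Against WT placebo livers, 4 of the genes stood higher in KO SAMe livers. Saa1 (both probes), Lcn2, Orm2 and Serpina3n were called higher and 0 probes lower, beside 8.42% and 7.81% of all probes. Saa1 probe 2 and Lcn2 had groups that did not overlap, as did 5.67% of all probes, or 5.46% with the call required as well. Blocking on background set left 5 called, with 1220 of all 14295 probes higher and 1146 lower, and the low-background arrays alone gave 4, with 1022 higher and 945 lower. No background correction and the authors' deposited log2 values each gave 3. The letter term gave 1 higher (Lcn2) and 1 lower (Saa4, -1.70, limma adjusted p = 0.0131), with 884 of all probes higher and 770 lower, and the same 2 were called among the mice of letter K. Both fits gave Saa4 the same change, which rests on the 2 KO SAMe livers of letter K, replicates 2 and 4. Over all arrays but KO SAMe replicate 2, the Saa4 change was 0.09 and not called. Each pair of comparisons shares the arrays of 1 group, so their values are not independent of each other.

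The scaling of the arrays moved all probes together. Median scaling over every probe shifted the median change of the filtered probes to 0.187 in KO placebo minus WT placebo and to -0.22 in KO SAMe minus KO placebo, and median scaling over detected probes shifted it to -0.191 and 0.148. The share of called probes that were higher was 81.5% and 28% under these scalings in the first of these comparisons, against 50.1% after quantile normalization. In KO SAMe minus KO placebo it was 5.14% and 73.5%, against 55.3%, and in KO SAMe minus WT placebo 43.5% and 41.9%, against 51.9%. Changes of a size like these shifts, as in Orm1, Hp and Crp, therefore depend on the scaling, and those of Lcn2, Saa1, Orm2 and Serpina3n in KO placebo against WT placebo livers are larger than the shifts.

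**Figure D1:**
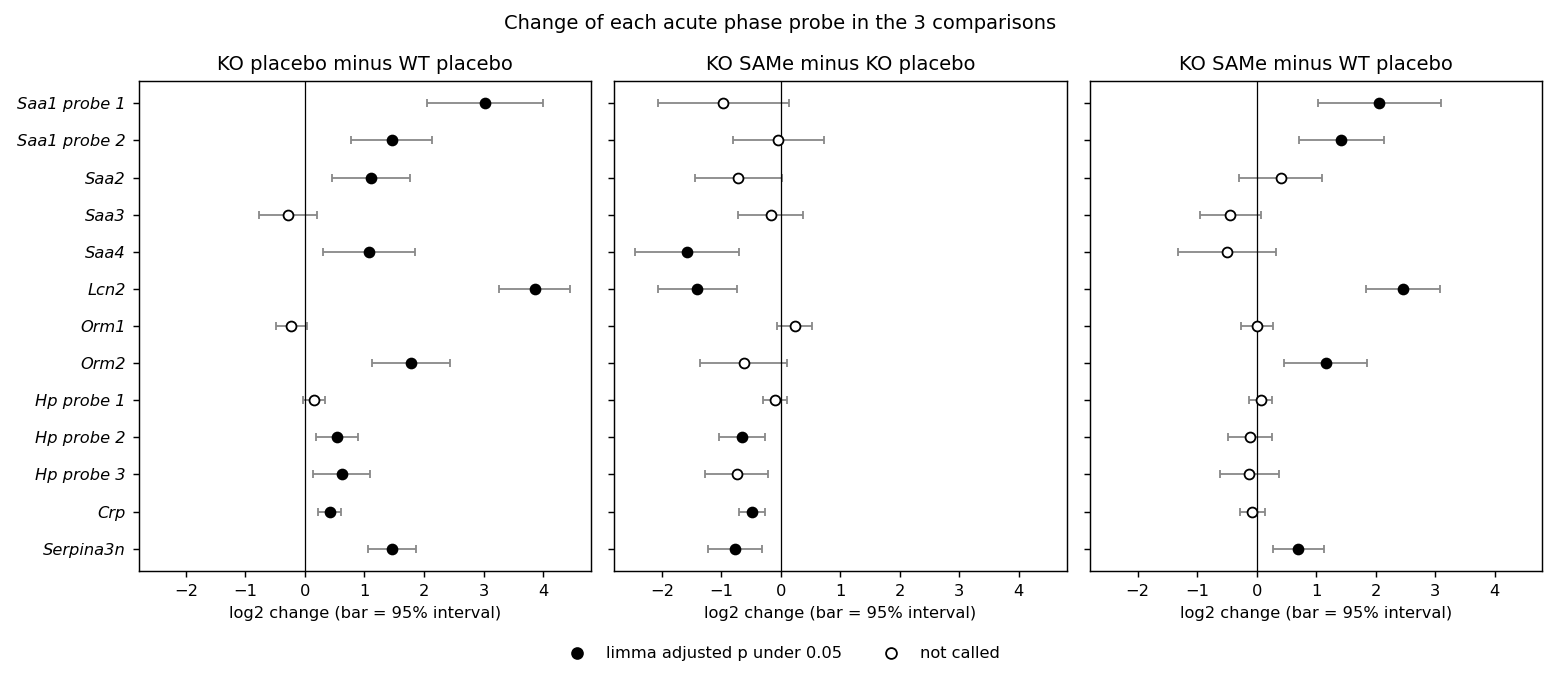
Log2 change of each of the 13 probes, with 95% interval, in KO placebo minus WT placebo, KO SAMe minus KO placebo and KO SAMe minus WT placebo. Filled points passed limma's adjusted p of 0.05, and they number 10, 5 and 5 in the 3 panels from left to right.

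**Figure D2:**
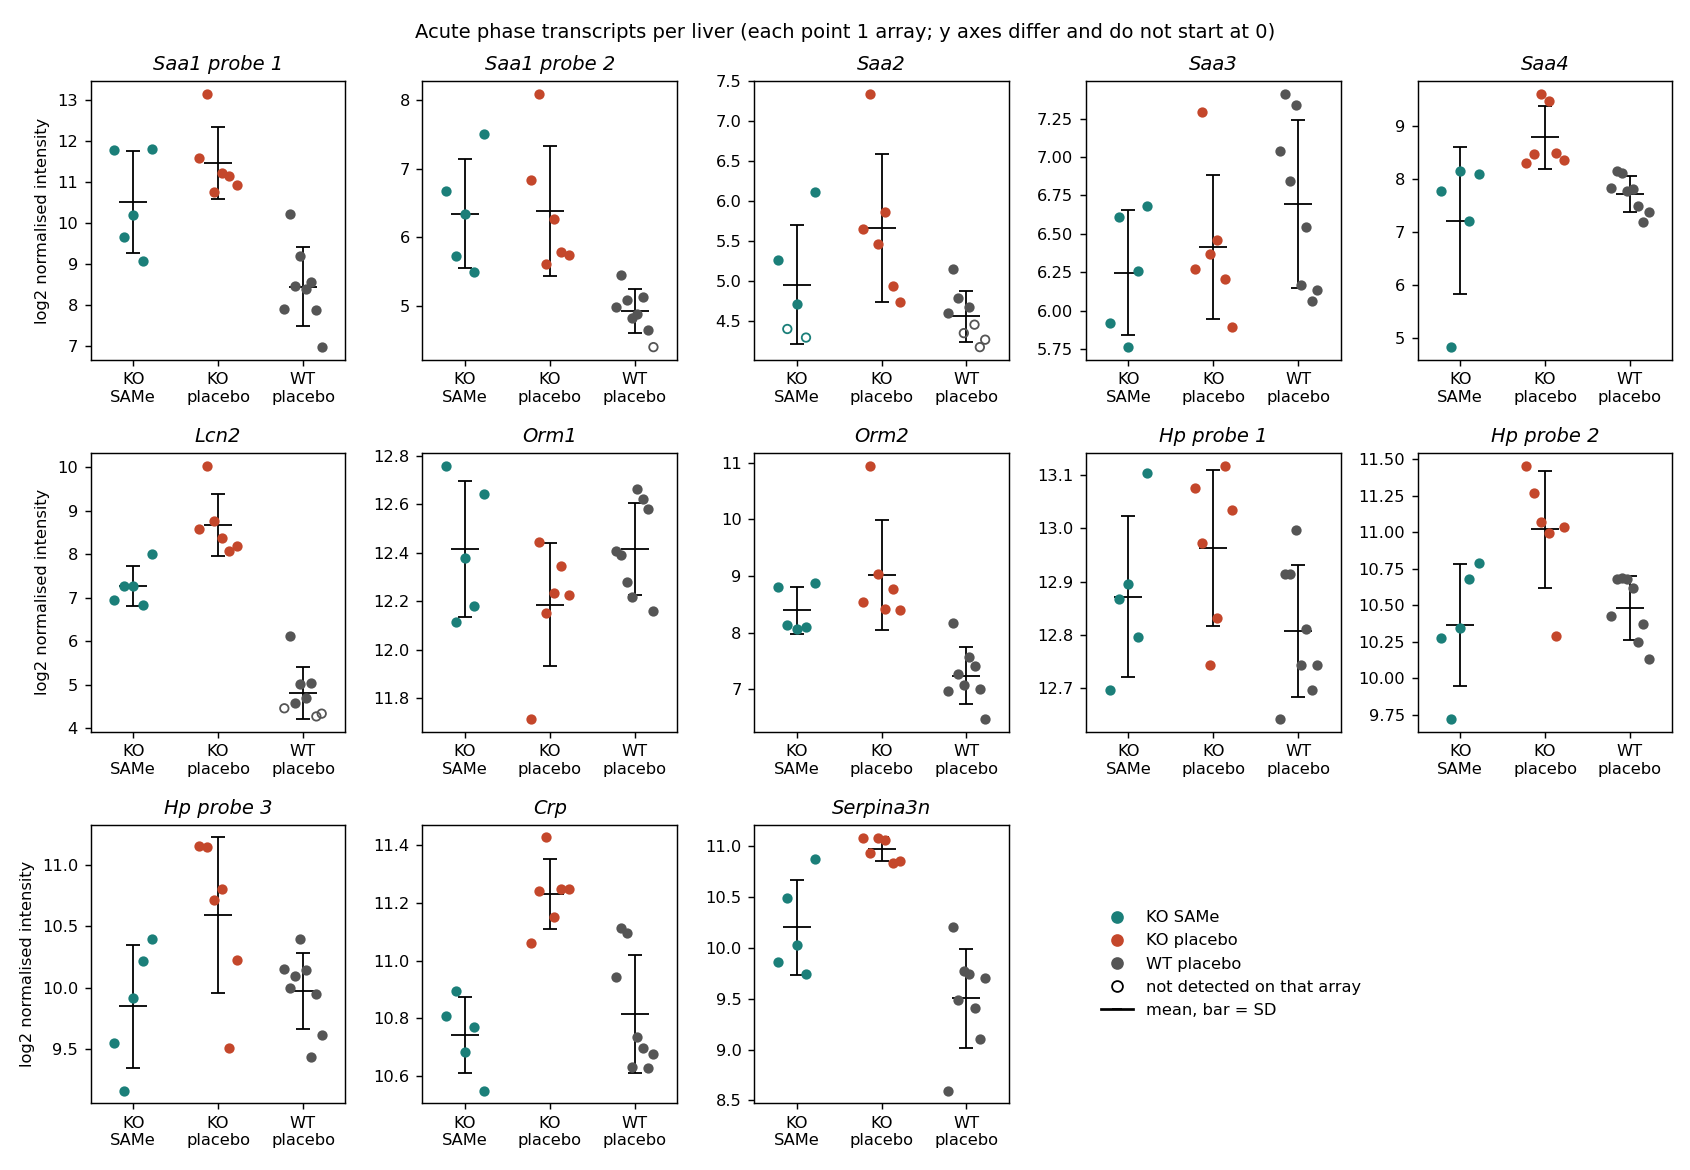
Log2 normalised intensity of each probe in KO SAMe (n = 5), KO placebo (n = 6) and WT placebo (n = 8) livers, 1 point per array, with mean and SD and open points where the probe was not detected. In the Lcn2 panel the 5 KO SAMe livers lie between the 6 KO placebo livers and the 8 WT placebo livers with no overlap.

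Lcn2 encodes lipocalin 2, a secreted protein that binds the iron carriers of bacteria and is made by hepatocytes and neutrophils. Lcn2 read 6.96, 7.28, 7.27, 6.83 and 8.02 in KO SAMe livers. It had a lowest, median and highest value of 8.09, 8.47 and 10.05 in KO placebo livers, against 4.27, 4.64 and 6.12 in WT placebo livers. The 3 groups did not overlap, so that every KO SAMe liver stood below every KO placebo liver and above every WT placebo liver. Means were 7.27 ± 0.46 (SD, n = 5) in KO SAMe, 8.67 ± 0.72 (n = 6) in KO placebo and 4.82 ± 0.60 (n = 8) in WT placebo livers. Lcn2 was 14.5-fold higher in KO placebo than in WT placebo livers (log2 change 3.86, SE 0.29, limma adjusted p = 3.11e-09). Because the probe was detected on 5 of the 8 WT placebo arrays, the size of this change hangs on the background correction: it was 2.33 with none and 2.32 on the authors' deposited log2 values, called on both. It stayed past the threshold under the block (3.69) and among low-background livers (3.28), and was 3.11 with an adjusted p of 0.0824 when the ID letter was a term. In KO SAMe against KO placebo livers Lcn2 was lower by 2.64-fold (log2 change -1.40, SE 0.32, adjusted p = 0.00529). Under the block that change was -1.19 with an adjusted p of 0.0723, and within the low-background arrays -0.87 with an adjusted p of 0.277. Against WT placebo, KO SAMe livers were 5.49-fold higher (log2 change 2.46, SE 0.30, adjusted p = 1.08e-05). That change was 1.21 with no background correction and on the authors' deposited log2 values, 1.46 with the other normexp setting (offset 50) and 2.24 with the letter term, and it was called under every alternative run.

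Saa1 was read by a bright and a dim probe that gave changes of different size. Saa1 probe 1 (ILMN_2768154) read 11.77, 9.65, 10.20, 9.06 and 11.80 in KO SAMe livers. Its lowest, median and highest values were 10.74, 11.18 and 13.15 in KO placebo livers, against 6.96, 8.42 and 10.20 in WT placebo livers. Every KO placebo liver lay above every WT placebo liver, and KO SAMe livers overlapped with both, 2 of them above the KO placebo mean of 11.46 ± 0.87 (SD, n = 6). The change in KO placebo against WT placebo livers was 3.03 (SE 0.47, 8.14-fold, limma adjusted p = 2.89e-05). Saa1 probe 2 (ILMN_2826869) read 6.67, 5.73, 6.34, 5.49 and 7.51 in KO SAMe livers. It ran at 5.61, 6.03 and 8.09 in KO placebo livers, against 4.40, 4.94 and 5.45 in WT placebo livers (lowest, median, highest). Here both KO groups lay wholly above WT placebo. The dim probe's change was 1.46 (SE 0.33, limma adjusted p = 0.00111), and among low-background livers it was 0.85 with an adjusted p of 0.124. With no background correction it was 0.68 and still called. SAMe-treated and placebo-treated KO livers did not differ past the threshold on either probe, with changes of -0.97 (95% interval -2.07 to 0.13) and -0.04 (-0.80 to 0.72). Against WT placebo, KO SAMe livers were higher on both, by 2.06 (SE 0.50, adjusted p = 0.00678) and 1.42 (SE 0.35, adjusted p = 0.00697). The dim probe's change was 0.64 and lost its call with no background correction (adjusted p = 0.0538) and on the authors' deposited log2 values (adjusted p = 0.0643). Both probes lost it with the letter term, at 0.92 (adjusted p = 0.347) and 0.68 (adjusted p = 0.295).

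Saa2 was dim, and detected on 3 of 5 KO SAMe, 6 of 6 KO placebo and 4 of 8 WT placebo arrays. It read 5.27, 4.40, 4.71, 4.29 and 6.11 in KO SAMe livers. In KO placebo livers it ran at 4.74, 5.56 and 7.34, against 4.17, 4.52 and 5.15 in WT placebo livers (lowest, median, highest). All groups overlapped, and the top value of each KO group stood well clear of its other values. The change was 1.11 in KO placebo against WT placebo livers (SE 0.32, limma adjusted p = 0.00744). Under the block it was 0.70 with an adjusted p of 0.14, and within the low-background arrays 0.29 with an adjusted p of 0.642. It was 0.45 and called with no background correction. SAMe-treated KO livers differed in Saa2 by -0.71 from KO placebo (95% interval -1.45 to 0.02) and by 0.40 from WT placebo livers (-0.29 to 1.09), neither past the threshold. Since Saa1 and Saa2 are near-identical copies, a probe named for one may capture RNA of the other, and the 3 probe values cannot be assigned to single genes with certainty.

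Saa3 and Saa4 did not move together. Saa3, which in mice is made by macrophages and fat cells as well as by the inflamed liver, ran at 5.76, 6.26 and 6.68 in KO SAMe livers. It ran at 5.89, 6.32 and 7.29 in KO placebo and at 6.06, 6.69 and 7.41 in WT placebo livers (lowest, median, highest). The groups overlapped throughout, and no comparison passed, with changes of -0.28 (SE 0.23) in KO placebo against WT placebo, -0.17 (SE 0.26) in KO SAMe against KO placebo and -0.45 (SE 0.25) in KO SAMe against WT placebo livers. Saa4 encodes the constitutive serum amyloid A of lipoprotein, which changes little in the acute phase. Saa4 read 7.77, 4.82, 8.15, 7.21 and 8.11 in KO SAMe livers. Its lowest, median and highest values were 8.31, 8.48 and 9.62 in KO placebo livers, against 7.19, 7.79 and 8.15 in WT placebo livers. All KO placebo livers thus lay above all livers of both other groups. The change was 1.07 in KO placebo against WT placebo livers (SE 0.37, limma adjusted p = 0.0267). It lost its call without KO placebo replicate 3 (0.91), KO placebo replicate 4 (0.94) or WT placebo replicate 7, and under the block (0.87, adjusted p = 0.153). Within the low-background arrays it was 0.73 (limma adjusted p = 0.438). The call was also lost with no filter on dim probes (adjusted p = 0.12) and with limma's trend and robust options (adjusted p = 0.0571). SAMe-treated KO livers had Saa4 2.99-fold lower than KO placebo livers (log2 change -1.58, SE 0.42, adjusted p = 0.0132). Without KO SAMe replicate 2, the liver at 4.82, the change was -0.98 and still called, and under the block it was -1.33 with an adjusted p of 0.123. Within the low-background arrays it was -1.22 (limma adjusted p = 0.347). With no filter on dim probes its adjusted p was 0.0632. KO SAMe and WT placebo livers differed by -0.50 (95% interval -1.33 to 0.32), and by 0.09 without KO SAMe replicate 2.

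Orm1 and Orm2 encode orosomucoids, or alpha-1 acid glycoproteins, plasma carriers of lipids and drugs. They are close paralogs, and capture of one by the other's probe was not tested. Orm2 read 8.82, 8.14, 8.06, 8.10 and 8.88 in KO SAMe livers. Its lowest, median and highest values were 8.41, 8.66 and 10.95 in KO placebo livers, against 6.48, 7.17 and 8.17 in WT placebo livers. KO placebo stood wholly above WT placebo, and KO SAMe overlapped with both. Orm2 rose by 1.78 in KO placebo against WT placebo livers (SE 0.31, 3.43-fold, limma adjusted p = 0.000114), and the call held under the block (1.63) and in the low-background arrays (1.31). KO SAMe differed from KO placebo livers by -0.62 (95% interval -1.36 to 0.11), which was not called, and was higher than WT placebo by 1.16 (SE 0.33, adjusted p = 0.0202). That call against WT placebo was lost without KO SAMe replicate 5 (1.03, adjusted p = 0.0567), with no background correction (0.88, adjusted p = 0.0603), on the authors' deposited log2 values (adjusted p = 0.0717), with no filter on dim probes (adjusted p = 0.0943) and with the letter term (0.87, adjusted p = 0.235). Orm1 ran at 12.11, 12.38 and 12.76 in KO SAMe, 11.71, 12.23 and 12.45 in KO placebo and 12.16, 12.40 and 12.66 in WT placebo livers. The 3 ranges of Orm1 overlapped, and its changes of -0.23 (SE 0.12) in KO placebo against WT placebo, 0.23 (SE 0.14) in KO SAMe against KO placebo and -0.00064 (SE 0.13) in KO SAMe against WT placebo were not called. Median scaling over detected probes gave Orm1 called changes of -0.65 in KO placebo minus WT placebo and 0.45 in KO SAMe minus KO placebo.

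Hp encodes haptoglobin, which binds free haemoglobin, and its 3 probes disagreed. Hp probe 1 (ILMN_2944824) averaged 12.87 ± 0.15 in KO SAMe, 12.96 ± 0.15 in KO placebo and 12.81 ± 0.12 in WT placebo livers (SD, n = 5, 6 and 8), with ranges that overlapped. None of its comparisons was called, and its change of 0.15 (SE 0.09) in KO placebo against WT placebo livers was -0.22 under median scaling over detected probes. Hp probe 2 (ILMN_2668510) ran at 9.72, 10.35 and 10.79 in KO SAMe, 10.29, 11.05 and 11.46 in KO placebo and 10.13, 10.52 and 10.69 in WT placebo livers. Of the 6 KO placebo livers 5 lay above the WT placebo mean, and KO placebo replicate 5 lay among the WT values. Its change was 0.54 in KO placebo against WT placebo livers (SE 0.17, limma adjusted p = 0.0131) and -0.66 in KO SAMe against KO placebo livers (SE 0.19, adjusted p = 0.0191). Blocking on the background set ended both calls (0.38 and -0.46), as did median scaling over detected probes (0.20 and -0.46) and the absence of a filter, and the SAMe call was also lost without KO placebo replicate 1 or KO SAMe replicate 2. Hp probe 3 (ILMN_2668509) ran at 9.16, 9.92 and 10.40 in KO SAMe, 9.51, 10.76 and 11.15 in KO placebo and 9.44, 10.04 and 10.40 in WT placebo livers. Its changes were 0.62 in KO placebo against WT placebo livers (SE 0.23, adjusted p = 0.0365) and -0.74 in KO SAMe against KO placebo livers (SE 0.26, adjusted p = 0.05004, not called). Against WT placebo livers, KO SAMe livers differed by -0.12 on both probe 2 and probe 3, not called on either. The change of 0.62 was 0.22 under the block, 0.29 under median scaling over detected probes and -0.08 within the low-background arrays. It lost its call when any 1 of KO placebo replicates 1 to 4 or WT placebo replicates 6 to 8 was left out, with an adjusted p of up to 0.104.

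Crp, which encodes C-reactive protein, a binder of phosphocholine on damaged cells and microbes, had small but tight differences. Crp read 10.81, 10.90, 10.68, 10.77 and 10.55 in KO SAMe livers. Its lowest, median and highest values were 11.06, 11.24 and 11.43 in KO placebo livers, against 10.63, 10.72 and 11.11 in WT placebo livers. All KO SAMe livers lay below all KO placebo livers. Crp was higher in KO placebo than in WT placebo livers by 0.41 (SE 0.10, limma adjusted p = 0.00147), a change that was 0.04 and not called under median scaling over detected probes. It was lower in KO SAMe than in KO placebo livers by 1.40-fold (log2 change -0.49, SE 0.11, adjusted p = 0.00408). The same scaling gave -0.28 with an adjusted p of 0.0932 here. Under the block both were called (0.39 and -0.46), and within the low-background arrays the first was 0.45 and called, the second -0.51 with an adjusted p of 0.13. KO SAMe and WT placebo livers differed by -0.07 (95% interval -0.28 to 0.14).

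Serpina3n encodes a secreted serine protease inhibitor of the alpha-1 antichymotrypsin clade, a family with many close copies in mice. Serpina3n read 9.86, 10.48, 10.03, 9.74 and 10.87 in KO SAMe livers. Its lowest, median and highest values were 10.83, 10.99 and 11.08 in KO placebo livers, against 8.60, 9.59 and 10.20 in WT placebo livers. KO placebo livers lay within 0.25 of each other, whereas KO SAMe livers spread over 1.13 and WT placebo livers over 1.61. Serpina3n was 2.77-fold higher in KO placebo than in WT placebo livers (log2 change 1.47, SE 0.20, limma adjusted p = 4.66e-06), with the call kept under the block (1.63) and in the low-background arrays (1.21). With SAMe it was lower than in KO placebo livers (log2 change -0.77, SE 0.22, adjusted p = 0.0187) and higher than in WT placebo by 0.70 (SE 0.21, adjusted p = 0.0237). The call against KO placebo held under the block (-0.97) but not without KO SAMe replicate 4 (-0.66, adjusted p = 0.0613), within the low-background arrays (-0.64, adjusted p = 0.269) or with no filter on dim probes (adjusted p = 0.0734). The call against WT placebo was lost without KO SAMe replicate 2 (0.62) or replicate 5 (0.53) and within the low-background arrays (0.57, adjusted p = 0.0597). It was also lost with median scaling over every probe (0.60), with no filter, when the fit held the 2 groups alone (adjusted p = 0.0554) and with the letter term (0.61).

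**Figure D3:**
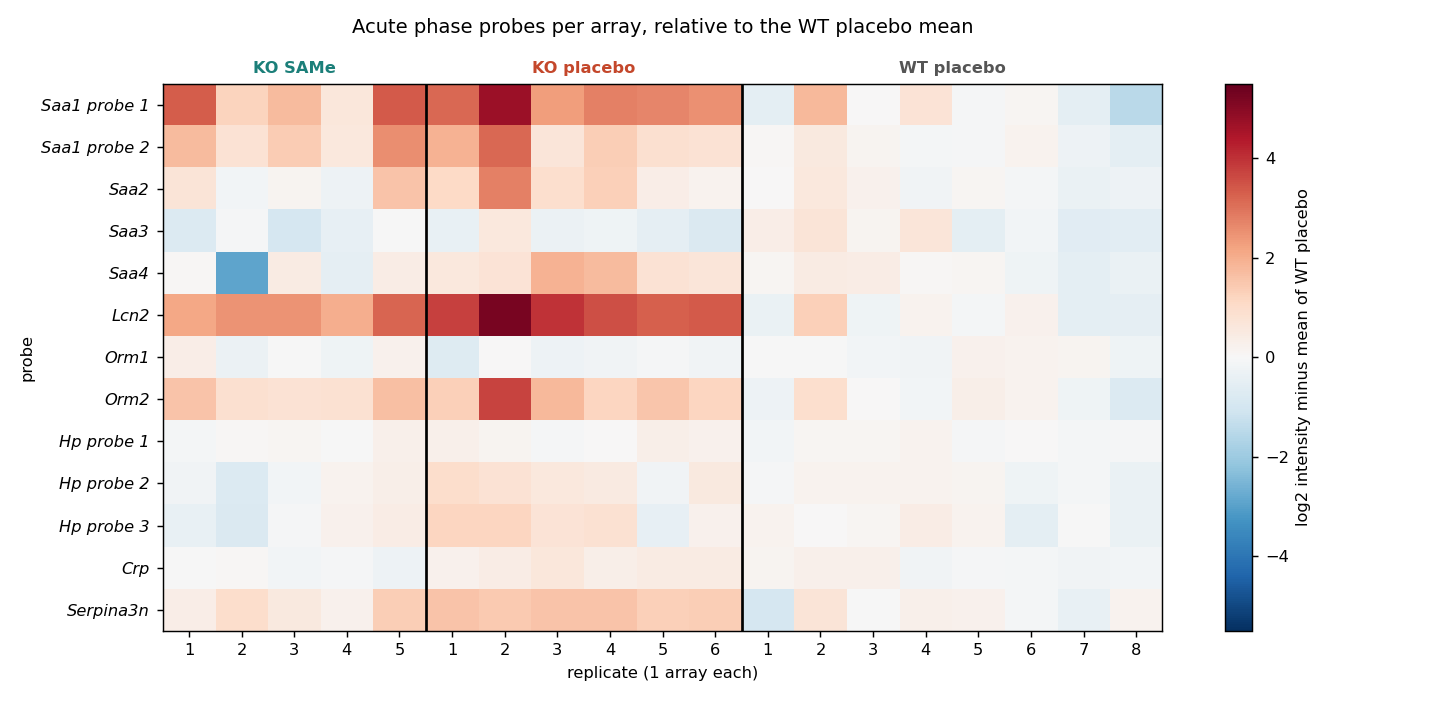
Log2 intensity of each probe on each array minus the WT placebo mean of that probe, with arrays in columns by group and replicate. KO placebo replicate 2 holds the highest value of its group for 7 of 13 probes.

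Single livers were high across several genes at once. KO SAMe replicate 5 had the highest value of its group for 10 of 13 probes, KO placebo replicate 2 for 7 and WT placebo replicate 2 for 9. With both of those placebo livers left out, an alternative chosen after seeing the data, 9 probes were called higher in KO placebo against WT placebo, 4 lower in KO SAMe against KO placebo and 5 higher in KO SAMe against WT placebo livers. After centring each group on its mean, Saa1 probe 2 and Saa2 correlated at r = 0.93 over the 19 arrays, Hp probes 2 and 3 at 0.915 and Saa1 probes 1 and 2 at 0.838. Lower values were found for Saa4, with r of 0.315 to Saa1 probe 1, 0.149 to Lcn2 and 0.512 to Hp probe 2, for Crp, with 0.059 to Saa1 probe 1 and 0.17 to Lcn2, and for Orm1, with 0.195 to Lcn2. These correlations are descriptions over arrays that share their normalization, and near-identical sequences may be captured by the same probe.

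Of 8528 other named genes, the 5 whose group-centred values were most like Saa1 were Orm2 (r = 0.787), Saa2 (0.782), Lyz1, a lysozyme gene (0.775), Atp1b3, a sodium pump subunit gene (0.775), and Pbk, a kinase gene of dividing cells (0.775). Without the 2 arrays farthest from their own group's mean of Saa1 these values were 0.68, 0.692, 0.59, 0.63 and 0.666. For Lcn2 the 5 were Orm2 (0.834), Gltp, a glycolipid transfer gene (0.788), Rgs10, a regulator of G protein signalling (0.787), Saa2 (0.782) and Saa1 (0.771). Without the 2 arrays farthest from their own group's mean of Lcn2 the values were 0.563, 0.582, 0.393, 0.629 and 0.568. Spearman's rho over all 19 arrays ran from 0.640 to 0.767 for the 5 genes most like Saa1 and from 0.607 to 0.716 for those most like Lcn2.

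Other positive acute phase genes were examined through a list of 38, of which 27 were measured. In KO placebo against WT placebo livers 13 rose and 2 fell, beside 19.5% higher and 19.4% lower of all probes, with a median change of 0.29. Mt1, a metallothionein gene induced by zinc and cytokines, rose by 3.53 (SE 0.27), Lrg1, a leucine-rich glycoprotein gene, by 1.14 (SE 0.15), and C4b, a complement gene, by 0.83 (SE 0.16). The mannose-binding lectin genes Mbl2 and Mbl1 fell by 1.58 (SE 0.17) and by 0.74 (SE 0.11). Under the block 9 of the list were called higher and 2 lower, beside 2493 and 2407 of all 14295 probes. Within the low-background arrays the list had 2 and 2, beside 1195 and 1147 of all probes. With SAMe, against KO placebo livers, Lrg1 (-0.59), Lbp, the binding protein of lipopolysaccharide (-0.40), and Itih3, an inhibitor subunit (-0.39), fell and Mbl1 rose by 0.53, while the other 23 were not called. Of all probes 7.67% were lower and 9.5% higher there. Under the block 0 of the list were called higher and 1 lower in that comparison, beside 574 and 586 of all 14295 probes. Between KO SAMe and WT placebo livers 5 were called higher, among them Mt1 (3.08), Hamp2, a hepcidin gene (2.13), C4b (0.73) and Lrg1 (0.55), and Mbl2 was lower (-1.33). Of all probes 8.42% were higher and 7.81% lower in that comparison. Within the low-background arrays 0 of these 27 were called in KO SAMe against KO placebo livers. Only 6 of all 14295 probes were called there, so that this count says nothing particular of the list.

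Of 14 genes that usually fall in an acute phase response 12 were measured. In KO placebo against WT placebo livers 6 rose and 2 fell, beside 19.5% higher and 19.4% lower of all probes. Ahsg, the fetuin A gene, rose by 0.63 (SE 0.13), Trf, the transferrin gene, by 0.51 (SE 0.12) and Pon1, the paraoxonase gene, by 0.33 (SE 0.10). Alb, the albumin gene, fell by 0.60 (SE 0.19) and Igf1, the growth factor gene, by 0.37 (SE 0.10). Alb and Igf1 rose in KO SAMe against KO placebo livers, by 0.80 (SE 0.21) and 0.50 (SE 0.11), with the other 10 not called. Those 2 of 12 stand near the share of all probes called in either direction there, 17.2%. Ahsg (0.57) and Fetub (0.67), another fetuin gene, were higher in KO SAMe than in WT placebo livers, beside 8.42% of all probes. Under the block 4 were called higher and 0 lower in KO placebo against WT placebo, and 0 were called in KO SAMe against KO placebo livers. Of all 14295 probes the block left 2493 higher and 2407 lower in the first, and 1160 called in the second.

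Signalling genes upstream of the acute phase were read through 3 further lists. In the IL-6 and STAT3 list, with 16 of 18 measured, 6 rose and 1 fell in KO placebo against WT placebo livers, beside 19.5% higher and 19.4% lower of all probes. In KO SAMe against KO placebo livers 0 of the 16 were called higher and 2 lower, beside 9.5% and 7.67%. In either direction 38.9% and 17.2% of all probes were called, and neither share of the list stands far from these. The split by direction was not tested. Cebpb, a C/EBP transcription factor gene, averaged 9.16 ± 0.72 (SD, n = 5) in KO SAMe, 10.89 ± 0.37 (n = 6) in KO placebo and 9.58 ± 0.43 (n = 8) in WT placebo livers. It rose by 1.31 in KO placebo against WT placebo (SE 0.24, limma adjusted p = 0.000171) and fell by 1.73 in KO SAMe against KO placebo livers (SE 0.27, adjusted p = 0.000543). Stat3, the transcription factor gene, rose by 1.05 (SE 0.24) and Lifr, a receptor gene of the IL-6 family, by 0.53 (SE 0.11), while Pias3, an inhibitor gene of STAT3, fell by 0.43 (SE 0.12). Ptpn11, a phosphatase gene, rose by 0.41 (SE 0.10) in that comparison and fell by 0.48 (SE 0.11) in KO SAMe against KO placebo livers, where 14 of the 16 were not called. Lifr was the 1 gene of the list called between KO SAMe and WT placebo livers (0.54), beside 16.2% of all probes called in either direction. In the IL-1, TNF and NF-kB list 13 of 24 were measured. Of these, 4 rose and 3 fell in KO placebo against WT placebo livers, beside 19.5% and 19.4% of all probes. Tnip1, an inhibitor gene of NF-kB signalling, rose by 0.96 (SE 0.14) and Irak1, a kinase gene, by 0.52 (SE 0.09). Il1b, the IL-1 beta gene, fell by 0.73 (SE 0.24), Il1rap, an IL-1 receptor subunit gene, by 0.53 (SE 0.12), and Ikbkg, a kinase subunit gene, by 0.38 (SE 0.11). With SAMe, against KO placebo livers, Ikbkg rose by 0.35, while Nfkbia, an NF-kB inhibitor gene, fell by 0.51 and Irak1 fell by 0.37. Those were the 1 higher and 2 lower of the 13, beside 9.5% and 7.67% of all probes. Under the block 0 of the 13 were called there, beside 574 higher and 586 lower of all 14295 probes. Between KO SAMe and WT placebo livers 1 of this list was higher (Tnip1) and 2 were lower (Il1b and Il1rap), beside 8.42% and 7.81% of all probes. Of 12 receptors and binding partners 5 were measured, and Hmox1, the haem oxygenase gene, and Lrp1, a scavenger receptor gene, rose by 0.93 and 0.29 in KO placebo against WT placebo livers and fell by 0.64 and by 0.32 in KO SAMe against KO placebo livers. Of all probes 19.5% were called higher in the first of these comparisons and 7.67% lower in the second. No Lrp1 probe was detected on more than 10 of the 19 arrays. Under the block 2 of the 5 were called higher in the first comparison and 1 lower in the second, beside 2493 and 586 of all 14295 probes. Within the low-background arrays the counts were 1 and 0, beside 1195 and 4 of all probes. Under the block the IL-6 and STAT3 list had 5 higher and 1 lower in KO placebo against WT placebo livers, and within the low-background arrays 1 higher and 0 lower. The IL-1, TNF and NF-kB list had 3 higher and 3 lower under the block, and 2 higher and 0 lower within the low-background arrays. Of all 14295 probes the block left 2493 higher and 2407 lower, and the low-background arrays gave 1195 and 1147.

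**Figure D4:**
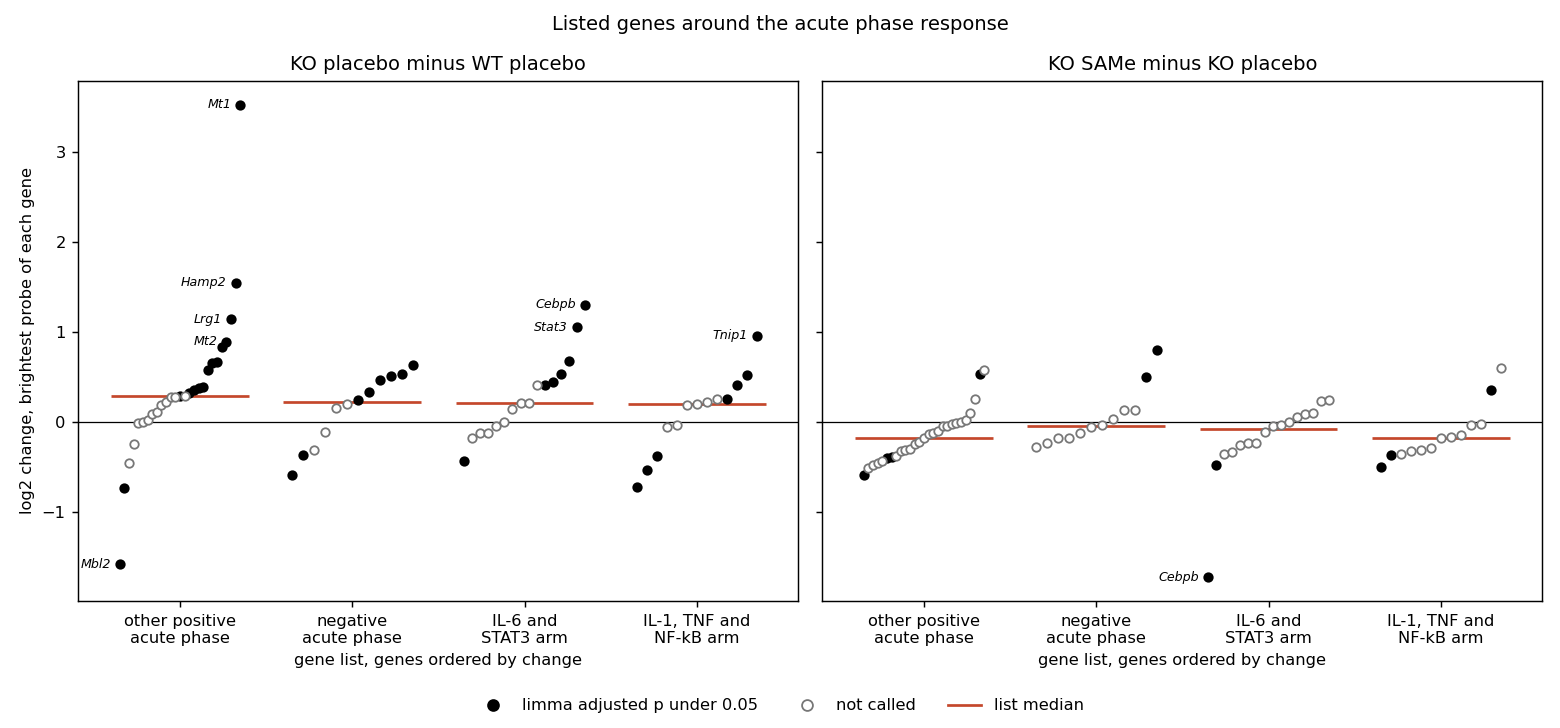
Log2 change of each measured gene of 4 lists in KO placebo minus WT placebo and in KO SAMe minus KO placebo, with red lines at list medians and filled points where limma's adjusted p was under 0.05. In the IL-6 and STAT3 list Cebpb lies at 1.31 in the first comparison and at -1.73 in the second.

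Markers of other cells were read beside these genes, because neutrophils also make Lcn2 and macrophages make Saa3. Of all probes, 19.5% were called higher and 19.4% lower in KO placebo against WT placebo livers. The shares were 9.5% and 7.67% in KO SAMe against KO placebo and 8.42% and 7.81% in KO SAMe against WT placebo livers. Marker lists of so few genes were not tested against those shares. Of 14 neutrophil markers 3 were measured, with a summed intensity of 1540 to 2627 in KO SAMe, 2443 to 3414 in KO placebo and 1119 to 1940 in WT placebo livers. The difference in the sum is that of Lrg1, which hepatocytes also make, which averaged 10.90 in KO SAMe, 11.50 in KO placebo and 10.36 in WT placebo livers and was the 1 called. The granule genes S100a8 and S100a9 differed by -0.45 (SE 0.56) and -0.25 (SE 0.48) in KO placebo against WT placebo livers, neither called. Ltf, Csf3r and Retnlg were under the detection filter. Of 17 Kupffer cell and macrophage markers 11 were measured, with 0 called higher and Clec4f called lower (-0.68) in KO placebo against WT placebo livers. Their summed intensities were 394 to 787 in KO SAMe, 488 to 1003 in KO placebo and 453 to 1120 in WT placebo livers. C1qc, a complement gene of these cells, was the 1 called between KO SAMe and KO placebo livers (-0.91), and 0 of 11 were called between KO SAMe and WT placebo livers. Under the block 0 of the 11 were called between KO SAMe and KO placebo livers, beside 574 higher and 586 lower of all 14295 probes.

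Of 10 adipocyte markers 4 were measured, and the lipid droplet genes Cidea, Cidec and Plin4 were called higher in KO placebo than in WT placebo livers, with Plin4 at 1.49 (SE 0.20). Cidec was detected on 0 and Cidea on 1 of the 8 WT placebo arrays, so that no fold is given for them. Both passed the filter only through KO arrays, where they were high. Their calls against WT placebo, and their part in the sum below, therefore give no separate support for a difference. The 4 genes summed to intensities of 43.5 to 148 in KO SAMe, 112 to 379 in KO placebo and 16.3 to 34.7 in WT placebo livers. Fatty hepatocytes are also known to express these genes, and Cidec and Plin4 were called lower in KO SAMe than in KO placebo livers. Cidec alone was called higher in KO SAMe than in WT placebo livers. Of 12 endothelial and stellate markers 9 were measured, with 5 higher and 0 lower in KO placebo against WT placebo, 0 and 2 in KO SAMe against KO placebo and 1 and 1 in KO SAMe against WT placebo livers. The 5 higher were 2 under the block and 0 within the low-background arrays, beside 2493 and 1195 of all 14295 probes. The 2 lower were 1 and 0, beside 586 and 4 of all probes. Of 8 cholangiocyte markers 2 were measured and Sox9 was called higher in both KO groups than in WT placebo. Of 12 lymphocyte markers 3 were measured, with Cd3d and Cd79b lower in KO placebo and Cd79b lower in KO SAMe than in WT placebo livers. No Cd79b probe was detected on more than 7 of the 19 arrays. The 3 genes were dim, with sums of 10.8 to 31.9 in KO placebo and 18.8 to 49.8 in WT placebo livers. Under the block 1 of the 3 was called lower in KO placebo against WT placebo livers, beside 2407 of all 14295 probes. Of the 10 hepatocyte markers Hnf4a and Cyp2e1 were higher and Alb lower in KO placebo than in WT placebo livers, Hnf4a was lower and Alb higher in KO SAMe than in KO placebo livers, and 0 were called in KO SAMe against WT placebo livers. Beside these counts, 38.9% of all probes were called in either direction in KO placebo against WT placebo livers. That share was 17.2% in KO SAMe against KO placebo and 16.2% in KO SAMe against WT placebo livers. Under the block the hepatocyte markers had 2 higher and 0 lower in KO placebo against WT placebo livers, and 0 called in KO SAMe against KO placebo livers. Of all 14295 probes the block left 4900 called in the first and 1160 in the second. The part of the marker differences in the changes of the acute phase genes was not tested.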

How the data were processed

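Liver RNA of 19 mice was labelled with biotin and read on 1-colour Illumina BeadChips, with 1 array per animal ID, per the labels' protocols. Scanner software, genome build and the BeadChip holding each array were not given in the sources used here. Raw values, deposited for 45281 probes, are a bead intensity and a detection p-value per array. A second deposited table has log2 values for 17592 probes. Recomputing that table showed that the authors' log2 values are quantile-normalized intensities without background correction, for probes whose detection p-value was below 0.01 on 1 or more arrays. Precision is limited by the number of arrays (5, 6 and 8).

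Background correction of the raw intensities used limma 3.58.1 (R 4.3.3; normexp, background inferred from the detection p-values, offset 16), before quantile normalization and log2. The filter, a detection p-value below 0.05 on 5 or more arrays, kept 14295 probes. Quantile normalization hides a shift of most genes in 1 direction. The 3 comparisons came from 1 lmFit and eBayes fit over all arrays, two-sided, called at a Benjamini-Hochberg adjusted p under 0.05. The fit was tested on simulated data.

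Gene symbols came from the platform annotation (of the 17592 probes 14737 had 1 symbol, 10 several and 2845 were unnamed here). Each of the 10 genes is given by every probe, numbered by brightness. List genes are given by the brightest probe, naming up to 5 with the largest moderated t, and, chosen after their values were seen, members of counts of 5 or fewer. Saa1 and Lcn2 were also matched to the 5 genes with the highest group-centred correlation. Promoter sequences came from RefSeq (GRCm38.p6), aligned with Biopython 1.88.

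The genes, lists and tests were chosen with earlier results of these data known. Alternatives changed scaling, background correction, filter, probe per gene, samples in the fit, variance model, array weights, the background set, the ID letter and each array in turn.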

Additional observations from a re-analysis of the deposited data

Results flagged for a closer look

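In 39 groups of values, 13 probes in each of 3 groups, 5 held a liver whose distance from its nearest neighbour was large for the group's range by Dixon's 95% limits. Chance alone gives such a value in about 1 in 20 groups. KO placebo replicate 2 accounted for 3 of the 5, with Saa1 probe 1 at 13.15 (next highest 11.59), Lcn2 at 10.05 (next highest 8.77) and Orm2 at 10.95 (next highest 9.04). In WT placebo, replicate 2 had Lcn2 at 6.12, with the next highest at 5.04. In KO SAMe, replicate 2 had Saa4 at 4.82, with the next lowest at 7.21. No cause of these values was tested.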

How the results depend on the processing

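For KO placebo against WT placebo livers the number of probes called higher was 6 with the background set as a block, 5 within the low-background set and 5 within the high-background set, which has 1 WT array and was chosen after seeing the data, and 0 with the ID letter as a term. Leaving out 1 array at a time gave 8 to 10. For KO SAMe against KO placebo the number called lower was 3 under median scaling over detected probes (1166 of all 14295 probes). It was 2 with no filter on dim probes (640 of 45281) and 2 under the block (586 of all 14295). Within the low-background set it was 0, beside 4 of all probes, and with the letter term 0, beside 0 of all probes. These last 2 counts thus say nothing particular of these genes. Letter G holds KO SAMe replicate 3 alone against 2 KO placebo livers, so no count is given for it. Without 1 array the number called lower was 4 to 6. For KO SAMe against WT placebo the number called higher was 3 with no background correction (1126 of all 14295 probes). It was 3 on the authors' deposited log2 values (1059 of 17592) and 3 with no filter (834 of 45281). Among the 10 probes detected on all 19 arrays it was 3 (951 of 7759). It was 1 with the letter term (884 of all 14295) and 1 within letter K (665 of all). Without 1 array it was 3 to 5 (3 without KO SAMe replicate 5). Other scalings, variance models and array weights left the 3 counts within 1.5 times.

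Some changes turned sign. Under median scaling over every probe Saa3 was 0.11 in KO placebo minus WT placebo and Hp probe 1 was -0.072 in KO SAMe minus WT placebo. Under median scaling over detected probes Hp probe 1 was -0.22 in KO placebo minus WT placebo, 0.14 in KO SAMe minus KO placebo and -0.083 in KO SAMe minus WT placebo. In KO placebo minus WT placebo the low-background set gave Hp probe 3 -0.081, and the letter term gave Saa2 -0.079, Saa3 0.028, Saa4 -1.42 and Hp probe 3 -0.33. These letter-term values rest on the KO SAMe livers of letters G and K, since KO placebo and WT placebo mice share no letter. They do not separate genotype from letter. In KO SAMe minus KO placebo, Saa1 probe 2 was 0.35 under the block, 0.58 in the low-background set, 0.57 with the letter term and within letter G, 0.30 without both high placebo livers and -0.33 to 0.30 without 1 array. Saa3 was 0.16 under the block, 0.20 in the low-background set, 0.0073 without both livers and -0.28 to 0.0073 without 1 array. Saa2 was 0.12 in the low-background set, and Hp probe 3 was 0.053 with the letter term and within G. In KO SAMe minus WT placebo, Saa2 was -0.21 and Crp 0.018 with the letter term and within K, and without 1 array Saa4 ran from -0.74 to 0.093, Orm1 from -0.087 to 0.075, Hp probe 2 from -0.22 to 0.043 and Hp probe 3 from -0.26 to 0.049. Within letter K (2 KO SAMe livers against 8 WT placebo livers) Saa4 was called lower (-1.70, adjusted p = 0.0244). Those 2 KO SAMe livers are replicates 2 and 4, and the Saa4 change was 0.093 over all arrays but replicate 2 of KO SAMe. The causes were not tested. No paired analysis was possible because replicate numbers follow only the order of the samples. Saa1 probe 2, Saa2 and Lcn2 were near background in WT livers, where the signal limits what can be seen.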
